A study of Mus musculus with 2 samples.

Results

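The 8 genes described here are Zbtb16 and 7 other genes that respond to glucocorticoids or shape that response, namely Fkbp5, Tsc22d3, Sgk1, Nr3c1, Klf9, Dusp1 and Hsd11b1. They were taken by gene symbol from the 32285 genes counted in single-cell RNA sequencing of mouse liver, and each symbol matched 1 gene. The members were chosen by their measured WT and N-LKO UMI counts in these same libraries, so the WT and N-LKO values of the 8 genes are given as a description and carry no test. WT mice (genotype label CTRL) were compared with N-LKO mice, in which albumin-Cre deletes a loxP-flanked NgBR allele (gene Nus1) in hepatocytes, on a C57BL6 background in males. NgBR is a subunit of the enzyme complex that builds dolichol, the lipid carrier of protein glycosylation. Both groups had been fed for 16 weeks on a diet that the titles call HFD and the treatment labels call WD. The WT library came from liver and the N-LKO library from liver plus tumor, and hepatocytes, nonparenchymal cells and, for N-LKO, tumor cells had been pooled in set proportions before loading. With 1 library per group, genotype, tumor tissue and library cannot be told apart, no difference has a replicate check, and every interval below covers counting error at the 95% level only.

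Glucocorticoids are adrenal steroids that enter cells freely and bind the glucocorticoid receptor, which the gene Nr3c1 encodes. The bound receptor moves to the nucleus and acts on genes near a palindrome of a pair of half-sites known as the glucocorticoid response element. In liver it is known for driving amino acid breakdown and glucose production during fasting, and in immune cells for restraining inflammation. Hsd11b1 encodes the enzyme that regenerates active corticosterone inside the cell, and Fkbp5 encodes a co-chaperone that lowers the receptor's affinity for hormone. Zbtb16 (the transcription factor PLZF), Tsc22d3 (GILZ, an inhibitor of inflammatory transcription factors), Sgk1 (a kinase), Klf9 (a Krüppel-like repressor) and Dusp1 (a phosphatase that switches off MAP kinases) are targets that the hormone induces in many tissues.

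Positions are given in GRCm38 with GENCODE spans, since the count files hold no coordinates. Zbtb16 (ENSMUSG00000066687) lies on the reverse strand of chromosome 9 from 48654297 to 48836222, a span of 182 kb. Fkbp5 (ENSMUSG00000024222) lies on chromosome 17 from 28399094 to 28517527, Dusp1 on the same chromosome from 26505590 to 26562128, and Hsd11b1 (ENSMUSG00000016194) on chromosome 1 from 193221634 to 193264075. Sgk1 is on chromosome 10 from 21882184 to 21999903, Klf9 on chromosome 19 from 23141226 to 23168134, and Tsc22d3 on the X chromosome from 140539528 to 140600659. The position of Nr3c1 is not reported here.

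The response element itself can be seen in the promoter of 1 of these genes. RefSeq promoter windows of 300 bases around a start site were held for 6 of the 8 genes, and Zbtb16 and Nr3c1 had none in the table. The palindrome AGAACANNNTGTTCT was searched on both strands, and it was in 3 of all 32851 windows (0.00913%), of which 1 belongs to Sgk1. That window is printed because it carries the sequence for which the whole group of genes is named. It lies on the forward strand at chr10:21993640-21993939 in GRCm38.p6, and the capitals mark the palindrome, whose bases run from 189 to 175 upstream of the start site.
Sgk1: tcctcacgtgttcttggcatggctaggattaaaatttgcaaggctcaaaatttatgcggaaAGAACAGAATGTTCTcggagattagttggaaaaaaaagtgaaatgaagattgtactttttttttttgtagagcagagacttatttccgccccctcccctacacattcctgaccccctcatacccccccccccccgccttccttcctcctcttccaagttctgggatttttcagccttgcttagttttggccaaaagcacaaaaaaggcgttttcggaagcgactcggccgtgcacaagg
The half-site AGAACA or TGTTCT, which the palindrome also contains, was in 3 of the 6 Sgk1 windows and in 1 of the 3 Tsc22d3 windows. It was in 19.0% of all windows, and in none of the single windows of Fkbp5, Klf9, Dusp1 and Hsd11b1. These matches describe letters in short windows and say nothing about where the receptor was bound in these livers.

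The WT library held 85522287 unique molecular identifiers (UMIs, each 1 counted transcript) over 100171 barcodes, and the N-LKO library 87575064 over 90147 barcodes. After filtering and removal of predicted doublets, 18434 WT and 19851 N-LKO cells remained, in 23 clusters. Of all barcodes, 2499 occurred in both libraries, which is 2.49% of the WT barcodes and 2.77% of the N-LKO ones. Nus1, the targeted gene, was at 74.3 CPM (UMIs per 1000000 UMIs of the class) in WT hepatocyte-like cells and 39.5 CPM in N-LKO, with a log2 ratio of −0.91 (−1.15 to −0.68). The 3′ end read by this assay lies outside the deleted exon, so transcripts of the recombined allele that keep this end would still be counted. Hepatocyte-like cells numbered 9624 in WT and 2073 in N-LKO. They formed 4 clusters that each drew at least 93.5% of their cells from 1 library, so differences in hepatocyte-like cells are also differences between clusters. A further 340 WT and 2459 N-LKO cells, 1.84% and 12.4% of all cells, lay in 2 clusters rich in the nuclear RNA Malat1. Hepatocyte markers scored highest there, but only 2 of 8 were raised, below the limit set after seeing the data, so these cells were left unnamed and are given separately. Of these clusters, cluster 18 held 320 WT and 10 N-LKO cells and cluster 6 held 20 WT and 2449 N-LKO cells, so differences in the Malat1-rich cells are also differences between clusters.

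Zbtb16 was higher in the N-LKO library in each of 12 cell classes, the 11 named ones with at least 100 cells in both libraries and the Malat1-rich cells. In hepatocyte-like cells it was at 43.0 CPM in WT (39.8 to 46.3) against 159 CPM in N-LKO (148 to 171), with a log2 ratio of 1.89 (1.74 to 2.04). It was among the 5.64% of expressed genes in this class that were at least 2-fold higher in N-LKO. The Malat1-rich cells held the highest level in either library, at 228 CPM in WT (194 to 267) against 769 CPM in N-LKO (744 to 794). Hepatic stellate-like cells went from 26.8 CPM (19.5 to 35.8) to 395 CPM (359 to 434), a log2 ratio of 3.87 (3.44 to 4.36). Endothelial-like cells went from 12.0 CPM (7.95 to 17.3) to 189 CPM (172 to 206), a log2 ratio of 3.95 (3.43 to 4.58). The intervals of the stellate-like and endothelial-like ratios overlapped, and among cells with at least 2000 UMIs the endothelial-like ratio was 2.38. WT levels of both classes were thus low beside those of the same classes in the N-LKO library.

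Immune classes showed the same direction. Macrophage-like cells were at 13.3 CPM in WT (9.71 to 17.7) against 114 CPM in N-LKO (107 to 121), and T/NK-like cells at 49.6 CPM (39.2 to 61.9) and 227 CPM (210 to 244). PLZF is the defining transcription factor of invariant natural killer T cells and some innate lymphoid cells, and the T/NK-like cells had the highest WT level outside the Malat1-rich cells. B-like cells were at 30.9 and 214 CPM, neutrophil-like cells at 47.0 and 225 CPM, and plasmacytoid dendritic-like cells at 18.8 and 147 CPM. Conventional dendritic-like cells were lowest in both libraries, at 8.54 CPM from 3 UMIs in WT and 104 CPM from 94 UMIs in N-LKO, with a log2 ratio of 3.39 (2.01 to 5.91). Plasma-like cells, also with 3 WT UMIs, were at 17.8 and 111 CPM, and cholangiocyte-like cells at 41.5 and 210 CPM. Classes left out of the 12, because they mixed markers of different types or had few cells, pointed the same way, at 9.45 and 122 CPM in mixed Kupffer and endothelial cells and 55.8 and 190 CPM in mixed T and endothelial cells. Of the 11 pairs of neighbours in the order of levels, only 1 had counting intervals apart in WT, the Malat1-rich cells over the T/NK-like cells, against 3 in N-LKO. In N-LKO these were the Malat1-rich over the stellate-like cells, the stellate-like over the T/NK-like cells, and the endothelial-like over the hepatocyte-like cells.

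**Figure D1:**
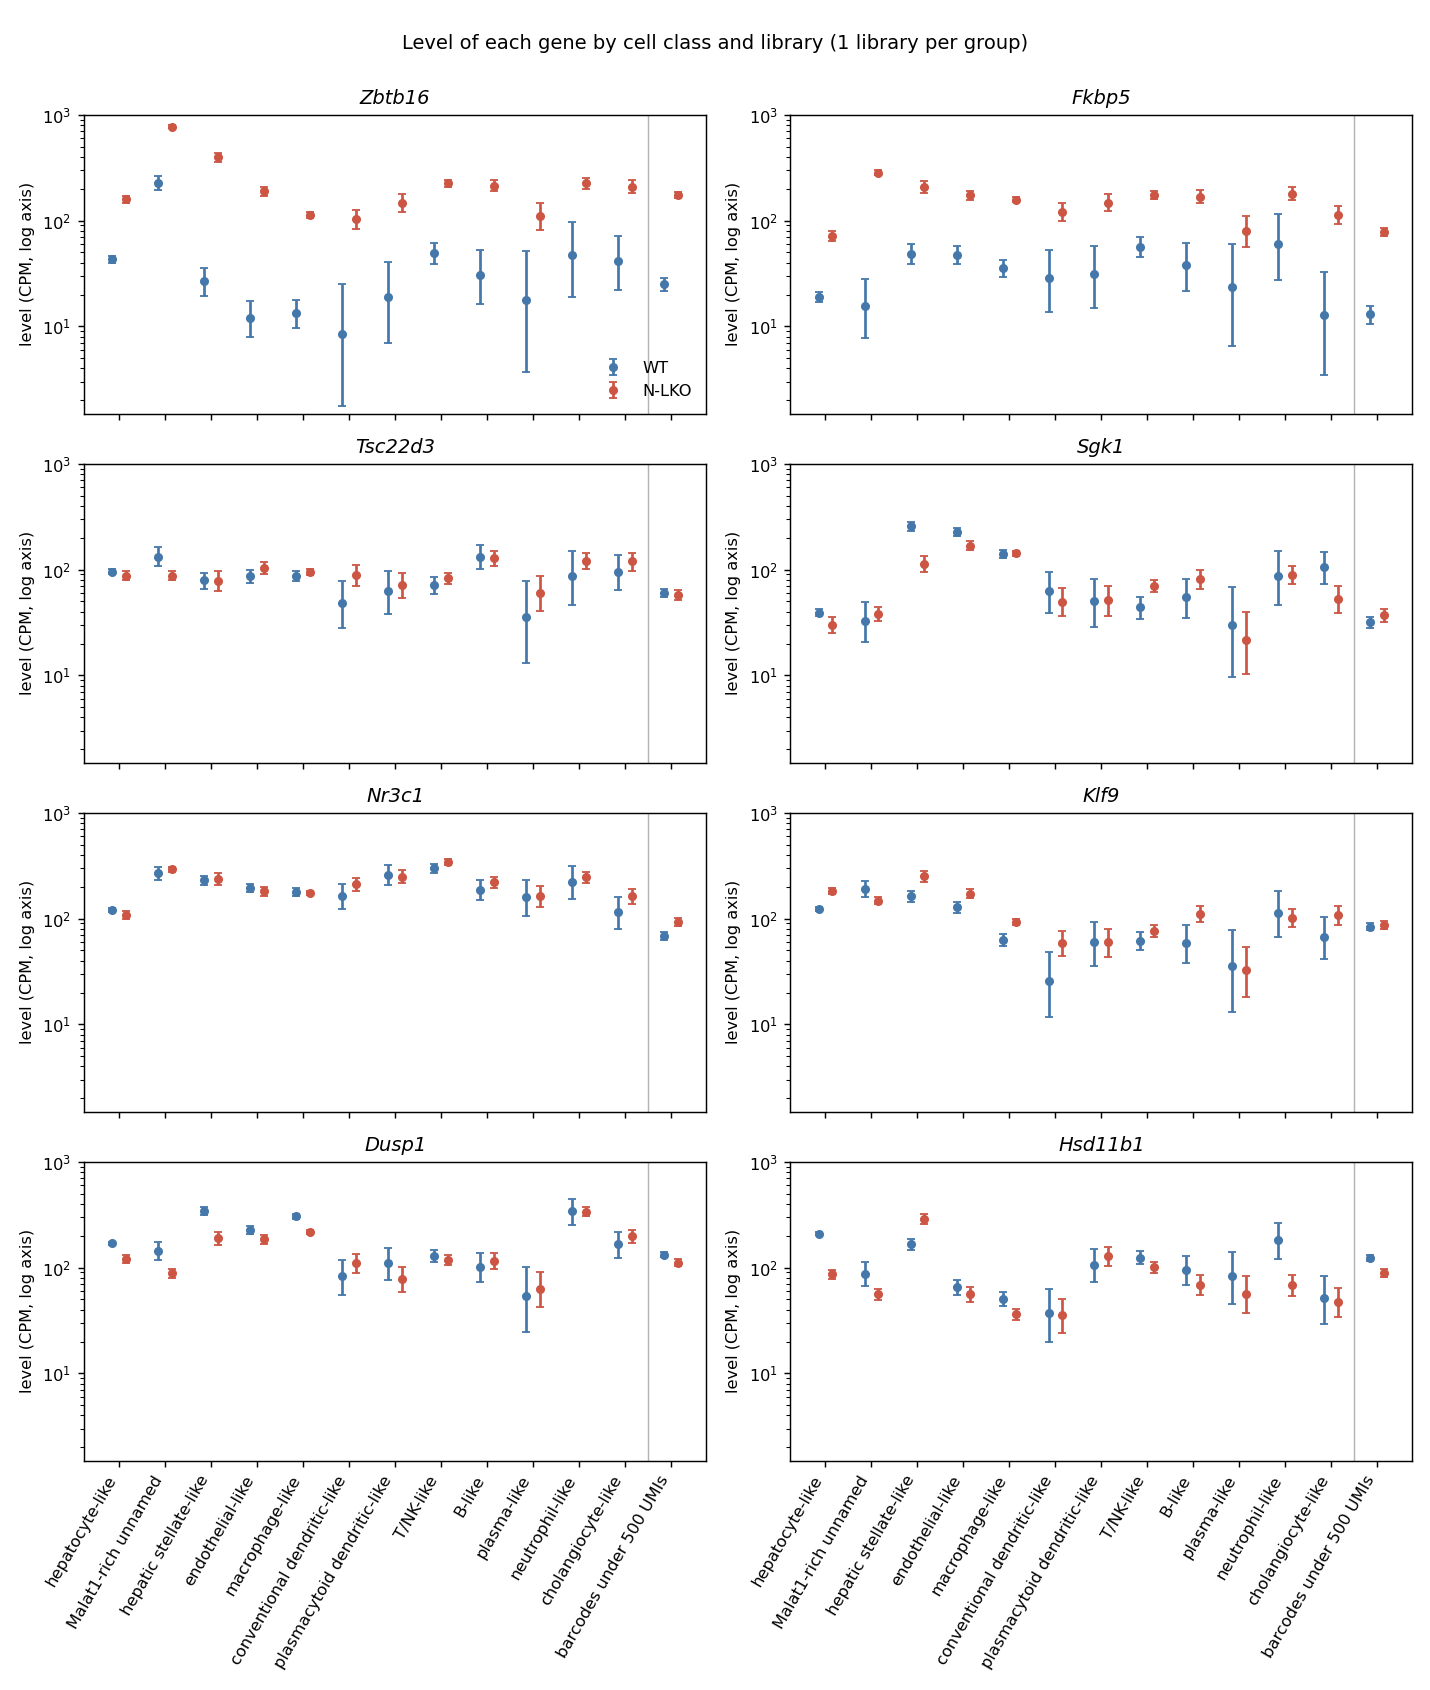
Level of each of the 8 genes (CPM, log axis) in 12 cell classes and in barcodes under 500 UMIs, for the WT (blue) and N-LKO (red) library, with bars for the exact Poisson 95% counting interval of 1 library. Zbtb16 and Fkbp5 lie higher in N-LKO in each class and in the background barcodes, and the other 6 genes lie close together or cross.

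Barcodes with under 500 UMIs, taken here as a measure of RNA free in the suspension, showed the difference too. Those barcodes, which had no fewer than 326 UMIs in WT and 377 in N-LKO, held Zbtb16 at 25.1 CPM in WT (205 UMIs over 18526 barcodes) against 174 CPM in N-LKO (1064 UMIs over 13674 barcodes), with a log2 ratio of 2.79 (2.58 to 3.02). The N-LKO hepatocyte-like level did not exceed this background, since its interval of 148 to 171 CPM overlapped the background's 164 to 185 CPM. The N-LKO endothelial-like and cholangiocyte-like levels overlapped it too, and the macrophage-like, plasmacytoid dendritic-like, conventional dendritic-like and plasma-like levels of 104 to 147 CPM did not exceed it. The WT background had an interval of 21.8 to 28.8 CPM. Of the 12 WT classes, only the hepatocyte-like, T/NK-like and Malat1-rich intervals lay above it. The WT macrophage-like and endothelial-like intervals lay under it, and the others, with the stellate-like one, overlapped it. Free RNA was estimated from markers of other cell types to make up at most 71.5% of the UMIs of WT hepatocyte-like cells and 26.6% of those of N-LKO ones. At those shares it alone would give 17.9 CPM of Zbtb16 in WT and 46.5 CPM in N-LKO, and the measured levels exceeded both. In WT endothelial-like cells the measured 12.0 CPM equalled the 11.9 CPM that free RNA would give, and in WT conventional dendritic-like cells the 8.54 CPM lay under 9.22 CPM, so no level above background is shown in either. The N-LKO stellate-like level of 395 CPM stood against 59.9 CPM from free RNA. When the free RNA was subtracted and the 34.4% of UMIs left in WT and 75.7% left in N-LKO were rescaled to CPM, the hepatocyte-like log2 ratio was 1.04, and when the totals were left as they were it was 2.17.

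The share of cells with a Zbtb16 UMI was compared after each cell had been thinned to 1000 UMIs. In hepatocyte-like cells it was 4.05% in WT (3.67 to 4.47) and 14% in N-LKO (12.5 to 15.6), and before thinning 6.86% and 26.6%. The Malat1-rich cells had it in 20% and 49.9% of cells, with up to 5 UMIs in a WT cell and 13 in an N-LKO cell. Stellate-like cells had it in 2.86% (1.88 to 4.17) and 30.5% (27.0 to 34.3) of cells. In conventional dendritic-like cells, the class with the lowest level, the share was 0.469% (1 of 213 cells) and 7.52% (37 of 492 cells). Median depths were 1509 and 1938 UMIs in hepatocyte-like cells and 1488 and 1648 UMIs in conventional dendritic-like cells. Conventional dendritic-like cells were picked here for their low Zbtb16 level, so larger shares in the other classes are not read as a result.

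Fkbp5 followed Zbtb16 in direction in each of the 12 classes. Hepatocyte-like cells were at 18.9 CPM in WT (16.8 to 21.2) against 71.1 CPM in N-LKO (63.6 to 79.3), with a log2 ratio of 1.91 (1.68 to 2.14). Macrophage-like cells were at 35.5 and 157 CPM, endothelial-like cells at 47.4 and 173 CPM, T/NK-like cells at 56.6 and 175 CPM, and stellate-like cells at 48.8 and 208 CPM. Their log2 ratios lay between 1.62 and 2.14, a narrower range than for Zbtb16 in the same 4 classes (2.18 to 3.95). The Malat1-rich cells stood apart, with 15.7 CPM from 11 UMIs in WT and 285 CPM from 1360 UMIs in N-LKO, with a log2 ratio of 4.12 (3.34 to 5.19). In WT, therefore, the Malat1-rich cells were rich in Zbtb16 but not in Fkbp5, whereas in N-LKO they were the highest class for both. The smaller classes had log2 ratios from 1.5 in neutrophil-like to 2.99 in cholangiocyte-like cells. Background barcodes were at 13 and 77.9 CPM, a log2 ratio of 2.58, and the N-LKO hepatocyte-like level lay within counting error of that background.

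Klf9, a circadian and hormone-responsive repressor, was moderately higher in the N-LKO library in most of the large classes. It was at 122 CPM in WT hepatocyte-like cells and 183 CPM in N-LKO ones, a log2 ratio of 0.58 (0.46 to 0.70), and at 164 and 252 CPM in stellate-like cells (0.62, 0.38 to 0.87). Macrophage-like cells were at 63.2 and 93.2 CPM and endothelial-like cells at 128 and 173 CPM. The counting interval lay above 0 in 6 of the 12 classes and below 0 in 1, the Malat1-rich cells, at 191 and 147 CPM. The only class past 2-fold was the conventional dendritic-like one, with 25.6 CPM from 9 UMIs in WT and 58.6 CPM from 53 UMIs in N-LKO. Its WT level lay under the 30.6 CPM that free RNA would give, and among cells with at least 2000 UMIs the log2 ratio went from 1.13 to 0.00. Background barcodes differed little, at 83.4 and 86.9 CPM.

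Tsc22d3, whose product GILZ is a classical glucocorticoid-induced protein of lymphocytes, differed far less between the libraries than Zbtb16 and Fkbp5. Its level was higher in N-LKO in 8 of the 12 classes, with a median log2 ratio of 0.19. It was at 95.6 CPM in WT hepatocyte-like cells and 87.4 CPM in N-LKO ones, a log2 ratio of −0.13 with an interval of −0.29 to 0.03. T/NK-like cells were at 71.2 and 82.4 CPM and B-like cells, its highest class in both libraries, at 133 and 128 CPM. No neighbouring classes in the order of its levels had counting intervals apart, and the WT Malat1-rich cells were also at 133 CPM. The interval included 0 in 10 of the 12 classes. It lay above 0 in conventional dendritic-like cells (0.84, 0.10 to 1.72) and below 0 in the Malat1-rich cells (−0.61, −0.93 to −0.26). None of the 12 classes was 2-fold apart for this gene.

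Sgk1, the kinase with the palindrome in its promoter window, differed between classes in direction. Its highest WT levels were in stellate-like and endothelial-like cells, at 258 and 225 CPM. N-LKO stellate-like cells were at 113 CPM (94.3 to 135), a log2 ratio of −1.18 (−1.48 to −0.90), and N-LKO endothelial-like cells at 169 CPM (−0.42, −0.61 to −0.23). Cholangiocyte-like cells were at 105 and 53.0 CPM, just inside the 2-fold limit. T/NK-like cells went the other way, from 43.9 to 70.4 CPM (0.68, 0.28 to 1.10), and macrophage-like cells were at 140 and 143 CPM. Hepatocyte-like cells were low and near background, at 39.3 and 29.9 CPM against 31.8 and 36.9 CPM in barcodes under 500 UMIs. The stellate-like class also held markers of other types, and their part in these values was not tested. The 8 endothelial markers together were at 3520 CPM in WT against 1658 CPM in N-LKO, the 8 Kupffer markers at 2607 and 1793 CPM, and the stellate markers themselves at 8960 and 4811 CPM.

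Dusp1, an immediate early gene that also answers to cell isolation, was lower in the N-LKO library where its interval excluded 0. Hepatocyte-like cells were at 170 and 120 CPM (log2 ratio −0.50, −0.64 to −0.37), macrophage-like cells at 305 and 217 CPM, and endothelial-like cells at 229 and 185 CPM. Stellate-like cells showed the largest difference, from 342 to 189 CPM (−0.86, −1.09 to −0.63). The interval lay below 0 in 5 of the 12 classes and above 0 in none, and none was 2-fold apart. Neutrophil-like cells, the highest N-LKO class, were at 342 and 338 CPM. Background barcodes were lower in N-LKO too, at 133 and 111 CPM (−0.26, −0.40 to −0.12). The N-LKO hepatocyte-like interval of 110 to 131 CPM overlapped that background's 103 to 120 CPM. The hepatocyte-like ratio of Dusp1 took both signs over the settings tried, from −0.87 to 0.27.

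The receptor gene Nr3c1 had the narrowest range of ratios of the 8. In hepatocyte-like cells it was at 122 CPM in WT against 109 CPM in N-LKO, with a log2 ratio of −0.16 (−0.31 to −0.02), and in T/NK-like cells, the highest class in either library, at 298 and 343 CPM (0.20, 0.04 to 0.36). In the other 10 classes the interval included 0, and the 12 log2 ratios ran from −0.16 to 0.48. Its hepatocyte-like ratio took both signs over the settings tried, from −0.93 to 0.66. The part of the receptor transcript in the values of Zbtb16 and Fkbp5 was not tested. The level of Nr3c1 in background barcodes was 68.6 CPM in WT against 93.0 CPM in N-LKO.

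Hsd11b1 had opposite differences in hepatocyte-like and stellate-like cells. Hepatocyte-like cells held 210 CPM in WT (203 to 217), the highest of the 12 WT classes, and 86.5 CPM in N-LKO (78.2 to 95.5), with a log2 ratio of −1.28 (−1.43 to −1.13). Stellate-like cells held 167 CPM in WT (148 to 187) against 290 CPM in N-LKO (260 to 324), with a log2 ratio of 0.80 (0.57 to 1.04). The class with the highest level was thus the hepatocyte-like one in WT and the stellate-like one in N-LKO. The shares of thinned cells with a UMI pointed the same way, from 17.8% to 7.96% of hepatocyte-like cells and from 15.9% to 24.8% of stellate-like cells. In macrophage-like cells the 50.5 and 36.2 CPM were close to the 46.8 and 31.9 CPM that free RNA would give, and in cholangiocyte-like cells the WT level of 51.1 CPM lay under the 61.5 CPM from free RNA. Neutrophil-like cells were at 181 CPM from 27 UMIs in WT and 68.6 CPM from 76 UMIs in N-LKO (−1.42, −2.05 to −0.71), and this difference turned to 0.46 when the mitochondrial limit was lowered to 10%. Background barcodes were at 123 and 88.2 CPM. The N-LKO hepatocyte-like level lay within counting error of that N-LKO background (80.9 to 96.0), whereas the WT hepatocyte-like level lay above the WT background.

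**Figure D2:**
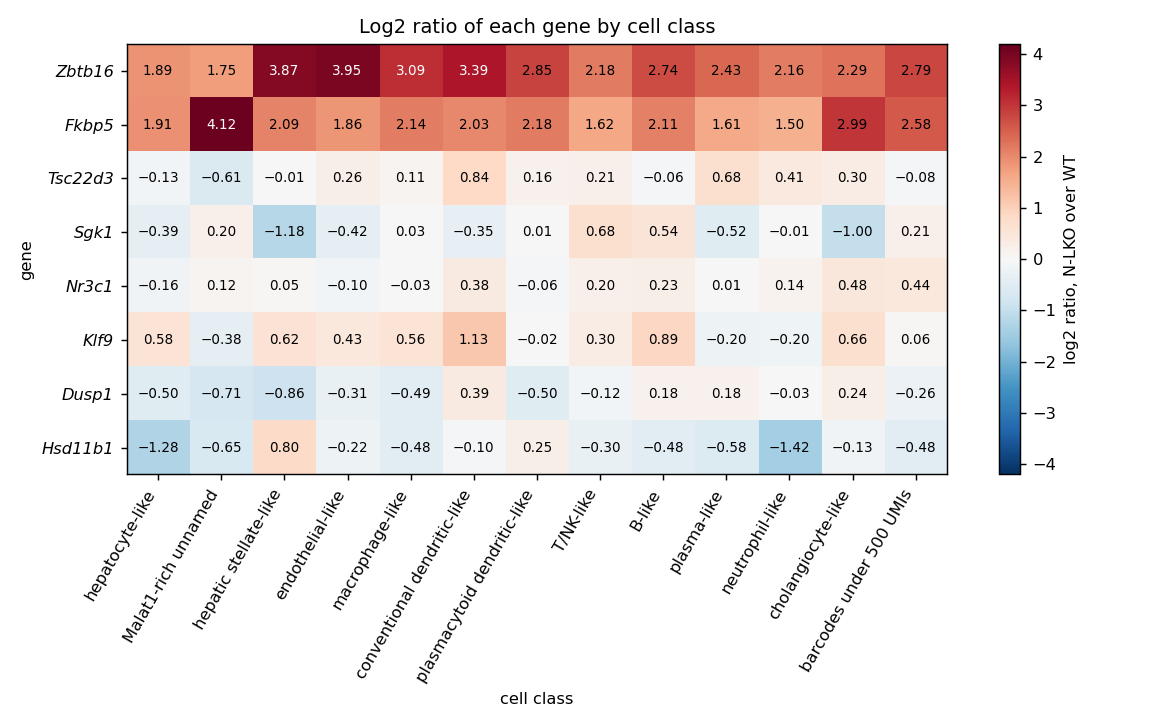
Log2 ratio of N-LKO over WT for each of the 8 genes (rows) in 12 cell classes and in barcodes under 500 UMIs (columns), with the value printed in each cell. The lowest value in the rows of Zbtb16 and Fkbp5 is 1.5 (Fkbp5 in neutrophil-like cells), and no other row has more than 1 class past 2-fold upward.

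Read against all genes, the members were split. In hepatocyte-like cells 2 of 8 were at least 2-fold higher in N-LKO, where 5.64% of the 9923 genes with at least 5 CPM in a library were, and 1 of 8 was at least 2-fold lower, against 2.88%. All 8 passed that filter, and since the members were listed for this contrast, nothing is read from these shares. Zbtb16 and Fkbp5 were the 2 members past 2-fold upward in 11 of the 12 classes. The share of all expressed genes that far up was 4.54% in macrophage-like, 8.43% in endothelial-like, 12% in T/NK-like, 10.5% in stellate-like and 17.7% in Malat1-rich cells. It was 13.2% in B-like, 15.1% in neutrophil-like, 13.3% in plasmacytoid dendritic-like, 12.6% in cholangiocyte-like and 17.8% in plasma-like cells. In conventional dendritic-like cells 3 of 8 members were that far up, Klf9 being the other, against 12.6% of genes. Downward, 1 member was past 2-fold in stellate-like cells (Sgk1, against 8.77% of genes) and 1 in neutrophil-like cells (Hsd11b1, against 22.5%). The median log2 ratio of the 8 members in hepatocyte-like cells was −0.14, beside 0.07 over all expressed genes.

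Within the hepatocyte-like clusters the Zbtb16 levels went with the library. Cluster 1 held 8108 WT cells at 46.2 CPM (42.7 to 49.9) and 129 N-LKO cells at 156 CPM (110 to 216). Cluster 7, the main N-LKO cluster, held 132 WT cells at 49.5 CPM (26.3 to 84.6) and 1903 N-LKO cells at 161 CPM (149 to 173). The few cells of one library that clustered with the other were thus at a level near that of their own library. Fkbp5 did likewise in cluster 1, at 20 CPM in WT against 67.6 CPM in N-LKO, and in cluster 7, at 19.0 and 71.6 CPM. For both genes the intervals of these few cells also overlapped the background barcodes of their own library. That background was 25.1 CPM of Zbtb16 in WT (21.8 to 28.8) and 174 CPM in N-LKO (164 to 185). The part of free RNA in these levels was not tested. Hsd11b1 was at 225 and 93.0 CPM in cluster 1 and at 160 and 87.4 CPM in cluster 7. Cluster 10, low in Malat1, had less of Zbtb16 in WT, at 13.6 CPM over 1210 cells.

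**Figure D3:**
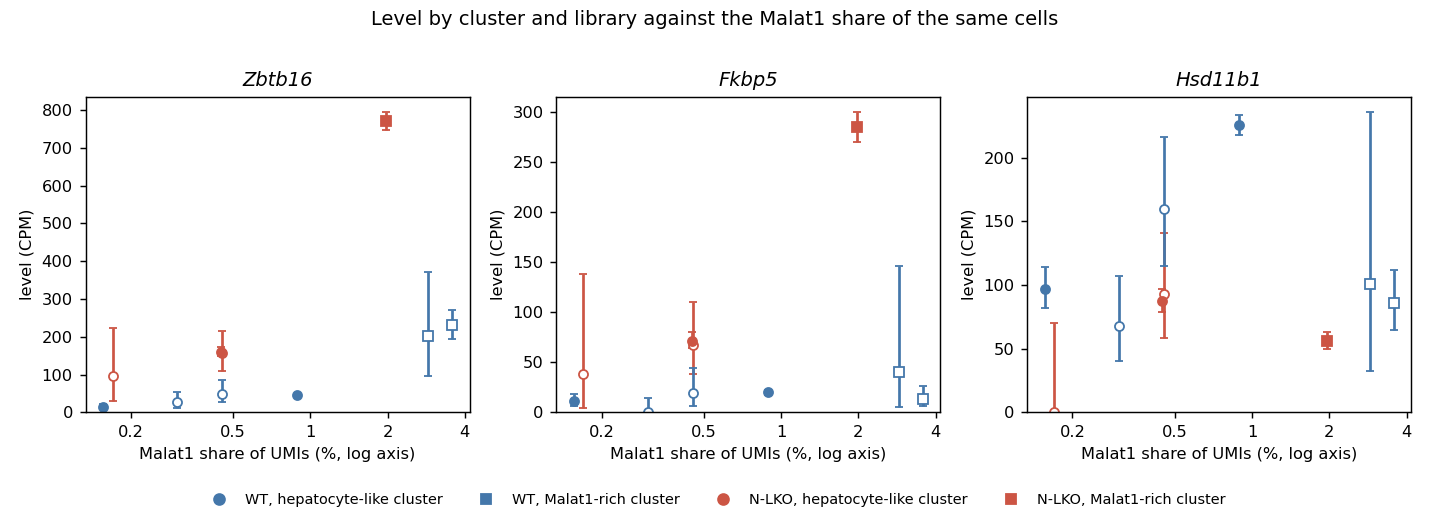
Level of Zbtb16, Fkbp5 and Hsd11b1 (CPM) by cluster and library against the Malat1 share of UMIs in the same cells (%, log axis), for hepatocyte-like (circles) and Malat1-rich (squares) clusters with at least 20 cells of the library; filled symbols stand for 1000 cells or more, and bars are Poisson 95% intervals. At like Malat1 shares the N-LKO points of Zbtb16 and Fkbp5 lie above the WT points.

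Malat1, which stays in the nucleus, differed between the libraries, and within each library Zbtb16 was higher in hepatocyte-like cells with more of it. It was at 8041 CPM in WT hepatocyte-like cells and 4448 CPM in N-LKO ones, and at 35204 and 19667 CPM in the Malat1-rich cells. When hepatocyte-like cells were divided into 3 strata by Malat1 share, the WT level of Zbtb16 was 28.1, 41.3 and 53.7 CPM from the lowest to the highest stratum, and the N-LKO level 130, 169 and 213 CPM. The log2 ratios within the strata were 2.20, 2.03 and 1.99. Those of Fkbp5 were 2.07, 2.05 and 1.96, and those of Hsd11b1 −0.93, −1.40 and −1.38. The Malat1-rich cells, in which the libraries differed further, are not in these strata, and the part of nuclear RNA in the members' values was not tested. The median mitochondrial share of UMIs also differed in this class, at 21.0% for WT and 16% for N-LKO. Among the 432 WT and 216 N-LKO hepatocyte-like cells with at most 10%, Zbtb16 was at 26.1 and 160 CPM. In stellate-like cells the mitochondrial share went the other way, at 10.1% for WT and 16.4% for N-LKO, and below the same limit Zbtb16 was at 25.3 and 495 CPM.

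Markers of other cell types in the hepatocyte-like class were compared as well. The 8 hepatocyte markers together were at 37697 CPM in WT and 36916 CPM for N-LKO. The 8 stellate markers summed to 133 and 52.7 CPM and the 8 endothelial markers to 298 and 200 CPM. Kupffer markers summed to 293 and 233 CPM, plasma markers to 203 and 136 CPM and erythroid markers to 103 and 40.4 CPM. Plasmacytoid dendritic markers summed to 277 and 809 CPM, neutrophil markers to 16.5 and 44.4 CPM and T markers to 22.7 and 29.0 CPM. NK markers were at 10.7 and 12.5 CPM, B markers at 18.9 and 22.8 CPM and conventional dendritic markers at 22.7 and 22.2 CPM. Monocyte or macrophage markers summed to 642 and 805 CPM, cholangiocyte markers to 170 and 285 CPM, and proliferation markers to 30.4 and 159 CPM with 8 of 8 higher in N-LKO. The part of these lists in the members' values was not tested.

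Gene span moved with the ratios outside hepatocyte-like cells. The spans of the 8 genes ran from 26.9 kb for Klf9 to 182 kb for Zbtb16. Among expressed genes of 100 kb and over, the median log2 ratio was −0.01 in hepatocyte-like cells but 0.30 in endothelial-like, 0.28 in macrophage-like, 0.37 in stellate-like, 0.42 in Malat1-rich and 0.55 in T/NK-like cells. The share of such long genes at least 2-fold higher was 5.34% in hepatocyte-like, 12.2% in macrophage-like, 16.2% in endothelial-like, 20.7% in stellate-like, 27.7% in T/NK-like and 28.8% in Malat1-rich cells. Sgk1, with an annotated span of 118 kb, and Nr3c1, with 109 kb, were not among them in any of the 12 classes. The Sgk1 window printed above ends at 21993939 and the annotated gene at 21999903. A transcript from that start site thus covers far less than the annotated 118 kb. The part of span in the values of Zbtb16 and Fkbp5 was not tested.

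The other genes of the pathway, drawn up as 3 lists of receptor partners and known targets and 1 list of genes that answer to cell isolation, were examined in hepatocyte-like cells. Of 16 genes for the receptor complex and the handling of the hormone, 15 passed the filter, with a median log2 ratio of −0.13. Past 2-fold upward was Abcb1a, an efflux pump that exports steroids, from 5.46 to 13.6 CPM (1.32, 0.83 to 1.80). Srd5a1 and Akr1d1, reductases that inactivate corticosteroids, were lower, from 79.8 to 30.7 CPM (−1.37, −1.64 to −1.12) and from 149 to 70.5 CPM (−1.08, −1.25 to −0.91). Transcripts of Hsd11b1, which reactivates the hormone, and of these reductases, which remove it, were thus lower together.

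Of the 18 liver metabolic targets, 18 passed, with a median of −0.15, and they pointed both ways. Tat, the tyrosine aminotransferase long used as a readout of glucocorticoid action in liver, was lower, at 847 CPM in WT against 368 CPM in N-LKO (−1.20, −1.28 to −1.13). G6pc, which releases glucose from the cell, was at 705 and 323 CPM (−1.12), and Gls2, the liver glutaminase, at 375 and 155 CPM (−1.27). Above 2-fold were Sult1e1 (estrogen sulfotransferase, from 0.434 CPM in 7 UMIs to 10.3 CPM in 47 UMIs), Angptl4 (a lipoprotein lipase inhibitor, from 15 to 54.7 CPM) and Lpin1 (a phosphatidate phosphatase, from 70.2 to 198 CPM). Pck1 and Tdo2, also induced by the hormone in liver, were at 1012 and 1017 CPM and at 1248 and 1107 CPM. As a list, 7 of these targets were higher and 11 lower, so the classical liver targets did not share 1 direction in hepatocyte-like cells. The Malat1-rich cells were more one-sided, with 16 of the 18 targets lower in N-LKO and 2 higher, and a median of −1.38. Past 2-fold there were 11 downward and 1 upward. In stellate-like cells 9 were higher and 9 lower, with a median of 0.15.

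Among the 24 targets shared across tissues, 22 passed, with a median of 0.21, and 6 were past 2-fold upward against 1 downward. The metallothioneins Mt1 and Mt2, metal-binding proteins that zinc and inflammation also induce, showed the largest differences, from 44.4 to 1548 CPM (5.12, 5.01 to 5.24) and from 5.15 to 303 CPM (5.87, 5.56 to 6.22). Cdkn1a, the cell cycle inhibitor p21, was at 17.7 and 146 CPM (3.04, 2.84 to 3.24), and Txnip, a thioredoxin inhibitor, at 28.5 and 64.8 CPM. Gpx3 and Anxa1 were past 2-fold from only 23 N-LKO UMIs each. Cd163, a macrophage receptor, was at 11.1 CPM in WT from 179 UMIs and had 1 UMI in N-LKO (−5.08, −11.0 to −3.16). Errfi1 and Zfp36, both glucocorticoid targets, were at 1040 and 1048 CPM and at 113 and 118 CPM.

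The genes that answer to cell isolation moved with these differences in hepatocyte-like cells. Of 14 such genes 13 passed, with a median log2 ratio of 1.01, and 7 were past 2-fold upward and none downward. Their summed level was 449 CPM in WT against 857 CPM in N-LKO. Ier3, Socs3, Fosb, Atf3, Btg2 and Fos led, with log2 ratios from 1.12 to 2.63, Atf3 going from 22.8 to 80.1 CPM and Btg2 from 45.4 to 137 CPM. In stellate-like cells the same list had a median of −0.58, with 13 of 14 genes lower in N-LKO. In the Malat1-rich cells its median was −0.94 over 11 genes. In each of the other classes its median was above 0, from 0.12 in macrophage-like to 0.99 in neutrophil-like cells. It was 0.42 in endothelial-like, 0.55 in T/NK-like and 0.58 in B-like cells. Zbtb16 and Fkbp5 were higher in N-LKO in all 12 classes. The part of isolation in the members' values was not tested.

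**Figure D4:**
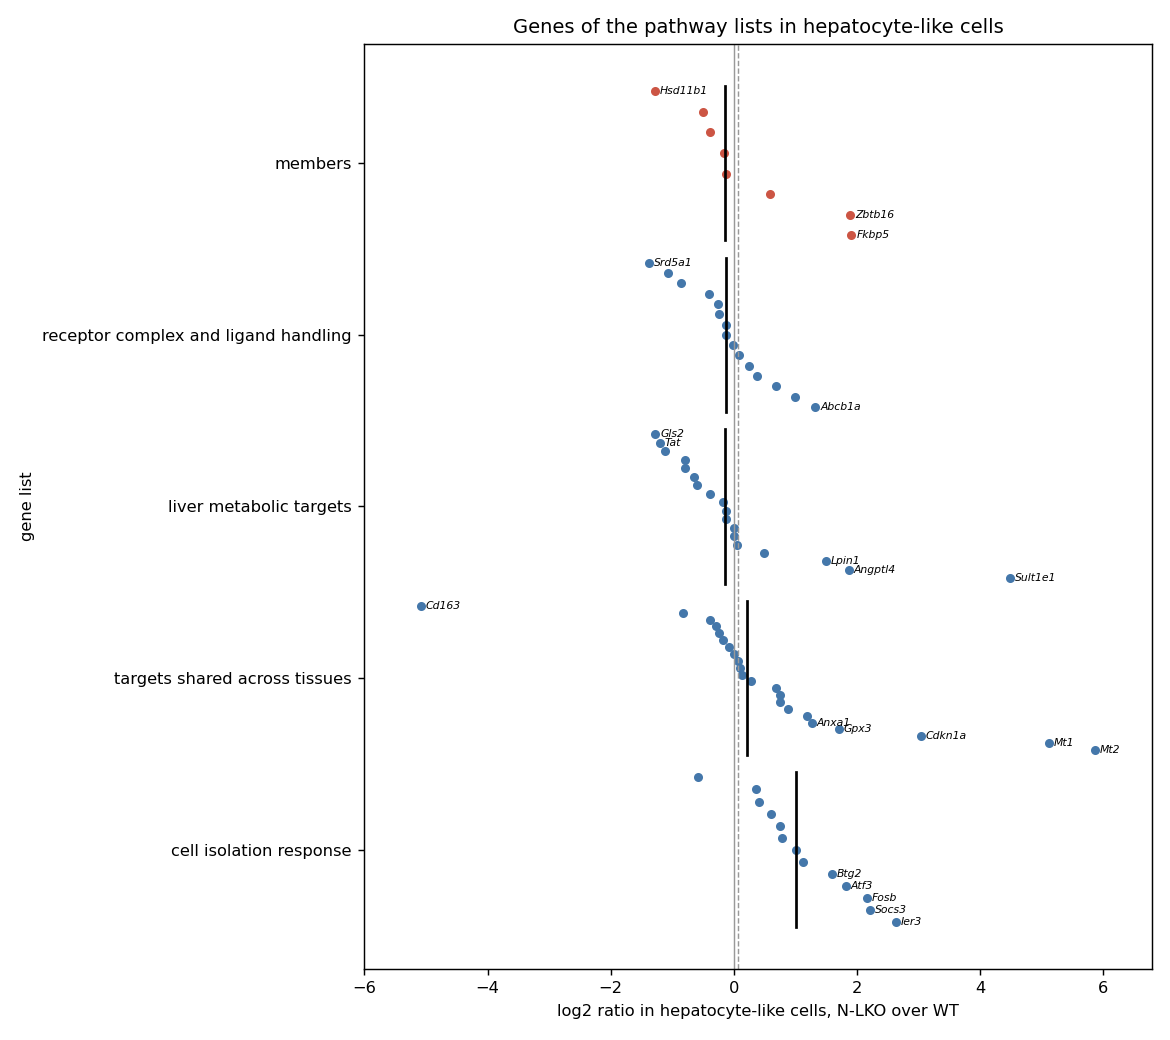
Log2 ratio of N-LKO over WT in hepatocyte-like cells (x axis) for the 8 members (red) and the genes of 4 lists with at least 5 CPM in a library (blue), with a black bar at each list's median, a grey line at 0 and a dashed line at the median of all expressed genes (0.07). Names mark genes beyond 1.2 on either side, among which Mt1 and Mt2 lie highest.

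The genes most like Zbtb16 over 28 values of class and library were Tmem45b (Pearson r = 0.90), Scara5 (0.90), Sybu (0.89), Cidec (0.88), Chsy3 (0.86) and Pcsk5 (0.86), among 16102 genes. These values share libraries and free RNA, so the coefficients are a description. Scara5, a ferritin receptor, was at 21.4 CPM in WT against 202 CPM in N-LKO Malat1-rich cells, and Cidec, a lipid droplet protein, at 34.2 and 94.3 CPM. Among the members, Fkbp5 ranked 184 in likeness to Zbtb16 (r = 0.72), Klf9 1315 (r = 0.50) and Tsc22d3 2281 (r = 0.41), and Sgk1 and Dusp1 had negative coefficients of −0.26 and −0.14.

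In hepatocyte-like cells the ratios of Zbtb16, Fkbp5 and Hsd11b1 kept their direction under the settings tried. Over 12 alternatives the log2 ratio of Zbtb16 ran from 1.04 to 3.22, that of Fkbp5 from 1.25 to 3.26 and that of Hsd11b1 from −2.09 to −0.95. Counting the Malat1-rich cells as hepatocyte-like gave the highest value for Zbtb16 and Fkbp5, and subtracting free RNA with rescaled totals the lowest. Hsd11b1 fell short of 2-fold, at −0.95, when free RNA was subtracted without rescaling. Klf9 stayed above 0, from 0.21 to 1.35. Values of both signs were found for the other 4 genes, with Dusp1 running from −0.87 to 0.27, Tsc22d3 from −0.67 to 0.94, Nr3c1 from −0.93 to 0.66 and Sgk1 from −0.85 to 0.28.

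**Figure D5:**
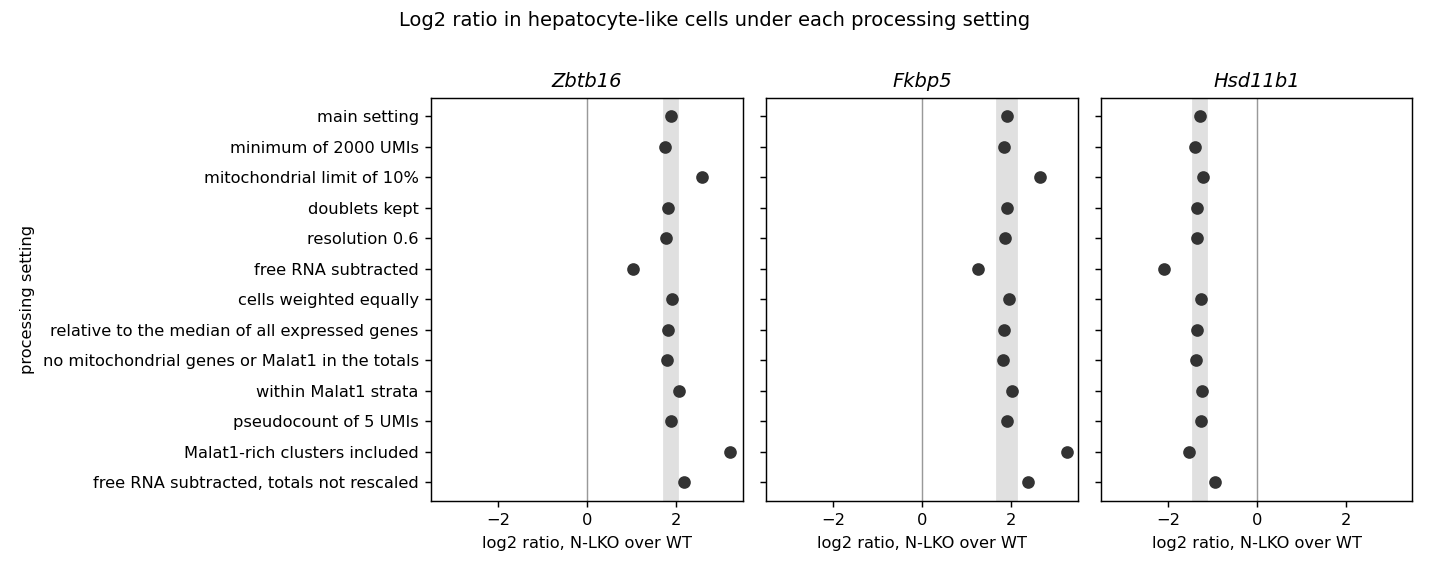
Log2 ratio of N-LKO over WT in hepatocyte-like cells (x axis) for Zbtb16, Fkbp5 and Hsd11b1 under the main and 12 alternative settings (y axis), with a grey band for the counting interval of the main value. Points of Zbtb16 and Fkbp5 stay above 0 and points of Hsd11b1 below 0 in each setting.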

How the data were processed

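Livers were dissociated with collagenase, and 3′ single-cell libraries were made from 1 WT and 1 N-LKO suspension. The authors aligned and counted reads with Cell Ranger 7.1.0, and the deposited values are raw UMI counts per gene and barcode. The submitters' processing notes name mm9, and whether intronic reads were counted is not given in the sources used here. Barcodes with at least 1000 UMIs, 400 genes and at most 30% mitochondrial UMIs were kept, and those with a Scrublet score over 0.25 were removed as doublets (8.55% of WT and 10.6% of N-LKO). Cells of both libraries were clustered together with scanpy 1.11.5 and leidenalg 0.10.2 (2000 variable genes without the members and lists, 30 principal components, resolution 0.3). Clusters were named from 15 marker lists, each scored against clusters of the same library. A name needed a score of 0.2 and 3 raised markers, limits set after seeing the clusters, which left 1.84% of WT and 12.4% of N-LKO cells unnamed but Malat1-rich.

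UMIs were summed per class and library and given as CPM with exact Poisson intervals. Log2 ratios divide N-LKO by WT after 0.5 UMI is added to each sum, with exact conditional binomial intervals, and shares have Clopper-Pearson intervals. Expressed genes had at least 5 CPM in at least 1 library. Free RNA was taken from barcodes under 500 UMIs, at the lowest ratio over marker lists of other types. Erythroid and neutrophil lists, and lists with under 1000 background UMIs, were left out of it after values were seen. Positions come from GENCODE M21 and promoters from RefSeq. The ratio code was checked on simulated counts. No test was possible with 1 library per group. The members, lists and alternatives were chosen with earlier results of these data known. Of each list, the text names up to 6 genes in each direction that were 2-fold apart in hepatocyte-like cells, and the 6 genes most like Zbtb16. Genes below 2-fold that are named beside them (Pck1, Tdo2, Errfi1, Zfp36) were chosen after their values were seen.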

Additional observations from a re-analysis of the deposited data

How the results depend on the processing

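The log2 ratio of Zbtb16 in hepatocyte-like cells, 1.89, moved outside its counting interval under 5 alternatives. It was 2.59 with a mitochondrial limit of 10%, 1.04 after subtraction of free RNA with rescaled totals, 2.17 with the totals not rescaled, 2.07 as the mean within Malat1 strata, and 3.22 with the Malat1-rich clusters included. The unscaled subtraction and the Malat1-rich clusters were chosen after seeing the data, and the cause of these shifts was not tested. The number of members at least 2-fold higher was 2 under the alternatives except the unscaled subtraction, where Klf9 made it 3, and the median of the members ran from −0.76 to 0.57 over 13. Of 989 other values over 99 results, 899 stayed within the interval of the main value. Of 51 member ratios by class whose interval excluded 0, 7 took the other sign under at least 1 alternative. Past 2-fold among them was Hsd11b1 in neutrophil-like cells, at 0.46 with the mitochondrial limit of 10% against −1.42. The others were Sgk1, Nr3c1 and Dusp1 in hepatocyte-like cells (to 0.28, 0.66 and 0.27), Hsd11b1 in macrophage-like cells (to 0.19 after rescaled subtraction of free RNA), Tsc22d3 in Malat1-rich cells (to 0.44 within Malat1 strata) and Klf9 in B-like cells (to −0.49 with at least 2000 UMIs). No paired analysis was possible because each group had 1 library, and for the same reason no count model and no leaving out of a replicate could be run. Depth limited the small classes most, where 3 WT UMIs of Zbtb16 stood behind the plasma-like and conventional dendritic-like values.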
